A study of Mus musculus with 2 samples.

Results

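Sgk1 and 6 further genes of the glucocorticoid response, namely Tsc22d3, Fkbp5, Klf9, Zbtb16, Nr3c1 and Ddit4, were examined in mDE6 cells, which come from mouse odontogenic epithelium, with and without activation of the β-catenin pathway. Probes were taken by gene name, with control spots left out, which gave 15 probes for the 7 genes among 56605 distinct probes with 37074 gene names on the array. The set was chosen on the ratio of CHIR99021 over control at these probes, in particular those of Sgk1 and Ddit4, so all of these values are a description. One array held RNA of control mDE6 cells given the vehicle DMSO, and the other held RNA of mDE6 cells treated with CHIR99021, an inhibitor of GSK-3 that stabilises β-catenin. Both were collected at 6 h, and neither condition included a glucocorticoid as a treatment. The sample labels give a dose of 5 mM, whereas the methods of the study give 5 μM and an untreated control. With 1 array per condition, no difference has a replicate check, and no test or p-value is given. Both arrays were on 1 slide, and the place on the slide and the condition cannot be told apart.

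Glucocorticoids enter cells and bind the glucocorticoid receptor, which is held by heat shock protein chaperones until the hormone arrives. The receptor then moves to the nucleus and binds short palindromic response elements near genes that it induces, and it lowers the expression of many inflammatory genes. SGK1 is a kinase of the AGC family, related to AKT, whose transcription is quickly induced by glucocorticoids, serum and cell stress. Like AKT, it can phosphorylate GSK-3, the enzyme that CHIR99021 inhibits. DDIT4, also called REDD1, lowers mTORC1 activity through the TSC complex and is induced by glucocorticoids, hypoxia and several stresses.

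Each array held 59305 spots besides its control spots. The scanner software placed 29562 (49.8%) of the control array's spots well above background and 28636 (48.3%) of the CHIR99021 array's, and none was saturated. Before a ratio was taken, each signal was divided by its array's 75th percentile, 486.7 (control) or 469.17 (CHIR99021). Among 220 probes printed 10 times, the SD of the log2 ratio between spots was 0.03 at the median, a figure for the spots alone and not for the cells. Of 12 Wnt feedback genes, 8 were measured on both arrays, and 5 of them (62.5%) were higher by at least 1.5-fold and none was lower, beside 5.06% higher and 5.76% lower among the 16886 genes measured on both arrays. Lef1, for example, had signals of 239 in the control and 690 in CHIR99021-treated cells. Axin2 and Nkd1 were dim in the control and are bounded as at least 1.66-fold and 25.8-fold higher. The pixel SD over mean of a spot, a measure of its unevenness, was 0.187 for Axin2 and 0.401 for Nkd1 on the CHIR99021 array. The cell type was set against marker genes. Krt14 and Trp63 of 8 epithelial markers were well above background on both arrays and Krt18 and Krt5 on 1 array, whereas Cdh1, Epcam, Krt19 and Krt8 were so on neither. Krt5 is bounded as at least 7.24-fold higher with CHIR99021, at signals of 5.51 and 165. Its pixel SD over mean was 0.323 on the CHIR99021 array. Trp63 had a ratio of 1.30 at its brightest probe, and a second Trp63 probe, at signals of 77.1 and 5.58, is bounded as at least 2.83-fold lower. The pixel SD over mean of that second probe was 0.462 on the control array. Whether uneven spots had a part in these limits was not tested. Of 8 mesenchymal markers, 7 were well above background on both arrays, all but Dspp. Among these Msx1 and Twist1 were higher, at ratios of 1.54 and 1.55, and Pax9 was lower, at 0.659. Each was just past the fold, and their Z-scores, described below, were 1.78, 1.67 and -1.72, short of the 2.0 in size that a call uses. Of 3 leukocyte markers, Cd68 and Ptprc, the latter at 1 of its 7 probes, were well above background on both arrays and Adgre1 on neither. The part of other cell types in the values below was not tested.

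The probes and promoters of the members with the greatest differences, Sgk1 and Ddit4, are shown first, because the ratios rest on 1 bright probe for each gene. Both Sgk1 probes and the Ddit4 probe are 60 bases long, and their first 30 bases, 5′ to 3′, are given below in lower case.
Sgk1, A_51_P118237: cagttgtcagtcaaagccgttggtgttttc
Sgk1, A_52_P352246: gtggatcctaaaattcatcttcccaagtat
Ddit4, A_51_P245796: tgccacctgggtcttccatctagaacctgt
In the mm9 coordinates of the files, the first Sgk1 probe lies on the plus strand at chr10:21719390-21719449 and carries accession NM_011361. The second lies 100840 bases upstream at chr10:21618550-21618609 and carries the single transcript ENSMUST00000143094. The Ddit4 probe lies on the minus strand at chr10:59412486-59412545 and carries NM_029083. No annotation of mm9 was used here, so the exon or UTR that each probe lies in is not stated.

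Promoter sequence from RefSeq, in GRCm38.p6 and therefore on another build than the probes, was matched by symbol for 5 of the 7 genes in 12 windows of 300 bases, which run from 250 bases before to 50 bases after an annotated start. Sgk1 had 6 such windows, which mark 6 different annotated starts. The 250 bases before 3 of the Sgk1 starts and before the Ddit4 start are printed 5′ to 3′ on the strand of the gene. Capitals mark matches to the full glucocorticoid response element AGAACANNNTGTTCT, to its half-sites AGAACA or TGTTCT, or to the TCF/LEF motif CTTTGAT or CTTTGAA, whose reverse strand reads ATCAAAG or TTCAAAG.
Sgk1, chr10:21978422-21978671 (+): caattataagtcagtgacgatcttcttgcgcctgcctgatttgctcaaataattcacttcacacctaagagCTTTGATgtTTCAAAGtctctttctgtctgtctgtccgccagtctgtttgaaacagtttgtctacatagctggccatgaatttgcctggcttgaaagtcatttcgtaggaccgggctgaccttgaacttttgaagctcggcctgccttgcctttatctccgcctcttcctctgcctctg
Sgk1, chr10:21993640-21993889 (+): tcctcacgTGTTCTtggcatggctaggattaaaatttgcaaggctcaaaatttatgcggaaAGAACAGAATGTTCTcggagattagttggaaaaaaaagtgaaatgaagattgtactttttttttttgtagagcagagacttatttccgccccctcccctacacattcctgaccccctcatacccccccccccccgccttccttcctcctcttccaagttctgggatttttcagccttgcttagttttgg
Sgk1, chr10:21994416-21994665 (+): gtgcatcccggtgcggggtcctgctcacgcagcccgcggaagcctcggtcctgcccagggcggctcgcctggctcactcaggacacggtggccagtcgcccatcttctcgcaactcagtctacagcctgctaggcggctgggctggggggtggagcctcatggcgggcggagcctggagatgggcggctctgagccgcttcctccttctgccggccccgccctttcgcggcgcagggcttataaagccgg
Ddit4, chr10:59951771-59952020 (-): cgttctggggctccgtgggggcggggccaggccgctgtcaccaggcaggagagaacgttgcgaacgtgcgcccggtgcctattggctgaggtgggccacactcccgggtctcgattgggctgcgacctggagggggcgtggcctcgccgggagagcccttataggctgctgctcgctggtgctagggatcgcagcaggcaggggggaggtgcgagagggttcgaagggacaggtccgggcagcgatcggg
The Sgk1 window that starts at 21993640 held the full element, at chr10:21993701-21993715. It began 189 bases before the start of that window's transcript and 965 bases before the most downstream Sgk1 start. Of all 32851 promoter windows, 3 (0.00913%) held that exact element. Half-sites were common, with a match in 19.0% of all windows, and 2 of the 3 half-sites of this Sgk1 window are the arms of the full element. The Sgk1 window farthest upstream among those printed held both TCF/LEF forms, 179 and 170 bases before its start, whereas 8.65% of all windows held either form. The window at the most downstream Sgk1 start and the Ddit4 window held no match to these motifs, and the GC content of their 250 printed bases was 70.4% and 70.0%. Of the 12 windows, 4 held a half-site, 3 of Sgk1 and 1 of Tsc22d3, and 2, both of Sgk1, held a TCF/LEF form. A match of letters describes the sequence and does not show binding, and the arrays do not show which Sgk1 start was used.

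Sgk1 signal was lower after CHIR99021. The bright Sgk1 probe, A_51_P118237, gave signals of 12124 (control) and 4155 (CHIR99021), and was well above background on both. After scaling, the values were 24.9 and 8.86 times the 75th percentile, a ratio of 0.356 or 2.81-fold lower, with a log2 ratio of -1.49 and an error of 0.20 from the scanner's own error model. Among 16886 genes well above background on both arrays, each taken at its highest-signal probe, this was the 85th lowest log2 ratio, and 0.497% of those genes were lower. The Z-score, which sets the log2 ratio against the 500 probes nearest in mean signal, was -5.26. Taken over all probes instead, it was -1.65, whose size is under the 2.0 that the call uses. The second Sgk1 probe, A_52_P352246, gave signals of 5.33 and 5.83 and was well above background on neither array, so that the difference was measured at 1 probe. The spots next to the bright Sgk1 probe, in row 15 of 384, had a median log2 ratio of 0.16. Like medians lay next to member probes with little difference, such as those of Nr3c1 at 0.19 and 0.22. Only Klf9 probe A_65_P07684 had a median below 0 next to it, at -0.31.

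Ddit4 showed the opposite direction. Its single probe gave signals of 9668 (control) and 22786 (CHIR99021), well above background on both. The scaled values were 19.9 and 48.6 times the 75th percentile, a ratio of 2.45 and a log2 ratio of 1.29 with a scanner error of 0.20. It was the 98th highest of the 16886 genes, with 0.574% higher. The Z-score was 4.42 against the nearest 500 probes and 1.42 over all probes, the latter below the 2.0 used for the call. The Ddit4 spot lay in row 201, just past the middle row of the array, 192, and the spots next to it had a median log2 ratio of 0.37 in the same direction. Within 3 rows and columns of the Ddit4 spot, no spot was well above background on 1 array only with a more than 4-fold ratio, and its pixel SD over mean was 0.159 on the control array and 0.165 on the other.

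**Figure D1:**
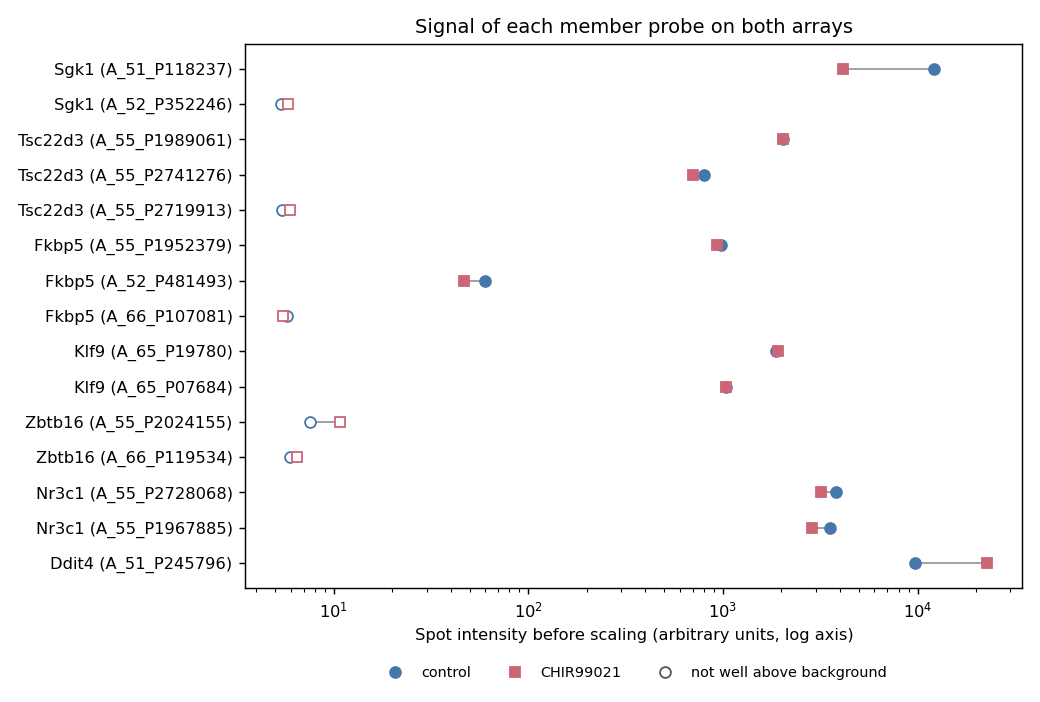
Spot intensity before scaling (arbitrary units, log axis) of the 15 probes of the 7 genes on the control array (circles) and the CHIR99021 array (squares), with open symbols where the spot was not well above background. The bright Sgk1 probe went from 12124 to 4155 and Ddit4 from 9668 to 22786, while the pairs of the other bright probes lie close together.

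The receptor itself, Nr3c1, had 2 probes that passed on both arrays, and each was a little lower with CHIR99021. A_55_P2728068, at chr18:39588272-39588331 in mm9, gave signals of 3809 and 3179.8, a ratio of 0.866 and a log2 ratio of -0.21. A_55_P1967885, at chr18:39571641-39571700, gave 3535 and 2871, a ratio of 0.842 and a log2 ratio of -0.25. Both have a scanner error of 0.20, about the size of the difference, and neither reached the ratio of 0.66 used for a lower probe. The probes lie apart on the array, in rows 219 and 59. Within 3 rows and columns of A_55_P2728068, 2 spots were well above background on 1 array only with a more than 4-fold ratio.

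Tsc22d3 encodes GILZ, a leucine zipper protein that carries part of the anti-inflammatory action of glucocorticoids, and it differed little between the arrays. Its brightest probe, A_55_P1989061 at chrX:137074094-137074153, gave signals of 2039 and 2031, a ratio of 1.03. A second probe, A_55_P2741276, gave 796 and 704, a ratio of 0.918, and the log2 ratios of 0.05 and -0.12 each had a scanner error of 0.20. The pair lay on either side of 0, each within its error, and the brightest probe was at -0.01 without scaling. The third Tsc22d3 probe, A_55_P2719913, gave 5.44 and 5.98 and was well above background on neither array.

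Fkbp5 encodes a co-chaperone of the receptor that lowers its affinity for the hormone, and it is among the most widely used reporters of receptor activity. Its brightest probe, A_55_P1952379 at chr17:28536060-28536119, gave signals of 981 and 932, a ratio of 0.985 and a log2 ratio of -0.02 with an error of 0.20. A dimmer probe, A_52_P481493, gave 60.2 and 46.6, a ratio of 0.802 and a log2 ratio of -0.32, with the greatest scanner error among the measured member probes, 0.30. The third, A_66_P107081, was not well above background, at 5.77 and 5.51. No Fkbp5 probe passed the fold, and the brightest was above 0, at 0.06, with spike-in scaling.

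Klf9, a Krüppel-like transcription factor induced directly by the receptor, had 2 probes with nearly equal values on both arrays. A_65_P19780, at chr19:23240410-23240469, gave signals of 1878 and 1924, a ratio of 1.06, and A_65_P07684 gave 1036 and 1034, a ratio of 1.04. The log2 ratios of 0.09 and 0.05 lay within their errors of 0.20. Both were above 0 by less than the error, and the second was at 0.00 without scaling. Within 3 rows and columns of the second, 1 spot was well above background on 1 array only with a more than 4-fold ratio.

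Zbtb16, a zinc finger transcription factor that is strongly induced by glucocorticoids in many cells, was not measured. Its probes gave signals of 7.59 and 10.8 for A_55_P2024155 and of 5.93 and 6.49 for A_66_P119534, and neither was well above background on either array. The dimmest probe that still counted as well above background had a signal of 23.7 in the control and 26.3 with CHIR99021, so that both Zbtb16 probes lay under it. The arrays give no ratio for this gene.

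**Figure D2:**
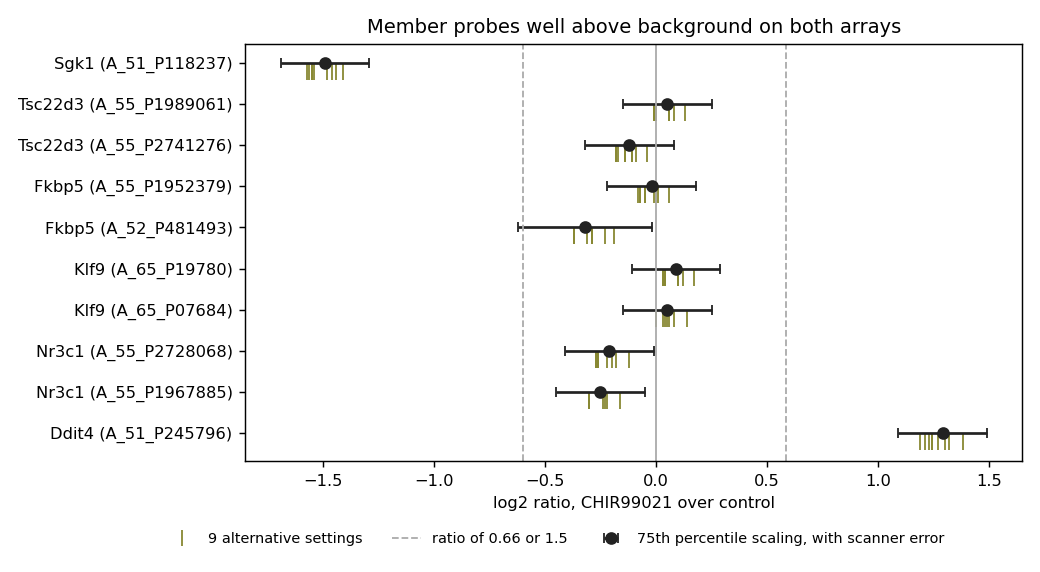
The log2 ratio of CHIR99021 over control for the 10 member probes that passed on both arrays, with bars for the scanner error and ticks for 9 alternative settings of scaling and background. The bright Sgk1 probe at -1.49 and Ddit4 at 1.29 lie past the dashed lines (ratios of 0.66 and 1.5) under every setting drawn, and the other 8 probes lie between the lines at their plotted ratios.

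Of the 15 probes, 10, from 6 genes, passed the filter of being well above background on at least 1 array, and all 10 passed it on both. Among them 1 was lower and 1 was higher, with 4 log2 ratios above 0 and 6 below and a median of -0.07. For all 28066 probes tested, 9.68% were lower and 8.24% were higher, and for the 18837 genes taken at their highest-signal probe, 9.67% and 8.05%. With the Z-score as a second criterion, 3.22% of the 18837 genes were lower and 2.63% higher. Among the 16886 genes measured on both arrays, as all 10 member probes were, 5.76% were lower and 5.06% higher by ratio alone. Sgk1 and Ddit4 met both criteria, but the members were chosen with these ratios known, so nothing is read from their count. The median over the 6 genes was 0.01, beside 0.02 over all genes tested, and its sign depended on the scaling. Of all genes measured on both arrays, the range from the 25th to the 75th percentile ran from -0.18 to 0.22, and Tsc22d3, Fkbp5 and Klf9 lay inside it at their brightest probes, whereas Nr3c1 at -0.21 lay just outside.

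**Figure D3:**
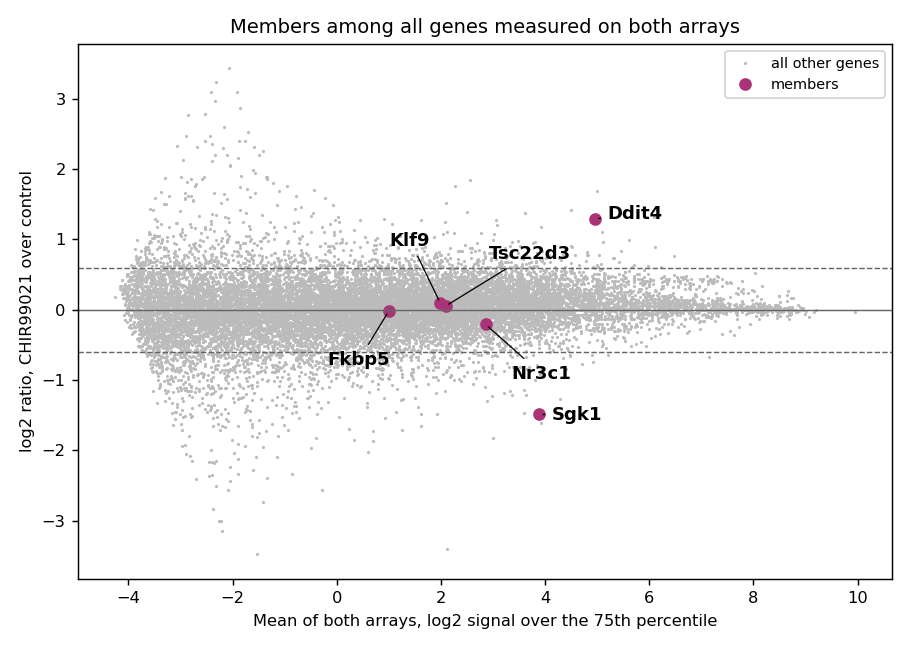
The log2 ratio of CHIR99021 over control against the mean log2 scaled signal for the 16886 genes well above background on both arrays (grey), with the 6 measured members marked. Sgk1 at -1.49 and Ddit4 at 1.29 stand outside the dashed fold lines among genes of like signal, and Tsc22d3, Fkbp5, Klf9 and Nr3c1 lie inside them.

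The genes whose ratio lay closest to each member's, among genes with a log2 control signal within 0.32 of its own, were named over the 2 arrays. For Sgk1, among 531 such genes, these were Cited2 at a ratio of 0.361, Sdpr at 0.329 and H2afv at 0.416. CITED2 is a transcriptional coregulator that competes for CBP and p300, and SDPR is a caveolar protein. For Ddit4, among 608 genes, they were Bnip3 at 2.37, Fasn at 2.15 and Scd2 at 1.95. BNIP3 is a mitochondrial protein of hypoxia and mitophagy, and FASN and SCD2 make and desaturate fatty acids. For Nr3c1 they were Cgref1, Fam3c and Ephb6, at ratios of 0.866, 0.867 and 0.868. A likeness over 2 arrays is 1 ratio, and nothing about shared control follows from it.

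Of 24 further glucocorticoid-induced genes, 21 were measured on both arrays, and 6 of these (28.6%) were lower and none was higher, beside 5.76% and 5.06% of all genes measured on both. Their median log2 ratio was -0.21, and 5 of the 6 also met the Z-score criterion. This list, like the other lists here, was chosen with earlier results of these data known, so its shares are a description only. Pck1, the rate-limiting enzyme of gluconeogenesis, was dim with CHIR99021, at signals of 35.0 and 5.57, and is only bounded as at least 1.28-fold lower, short of the fold. If its computed ratio is counted all the same, 7 of 22 (31.8%) were lower with the 75th percentile, beside 9.67% of all 18837 genes tested. With spike-in scaling 4 were lower, and by the mean of a gene's probes 2 genes were higher. The shares of all genes under those other settings are not given here, so nothing is read from these counts. Rgs2, a regulator of G protein signaling, had signals of 2381 and 1097, a ratio of 0.478. Angptl4, a secreted inhibitor of lipoprotein lipase, had 1122 and 609, a ratio of 0.563. Anxa1, annexin A1 of the anti-inflammatory response, had 13516 and 8253, a ratio of 0.633, and 0.672 with spike-in scaling, short of the fold. These 3 lay in the earlier rows of the arrays, up to row 192.

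The other lower genes lay past the middle row. Irs2, an insulin receptor substrate, had 2979 and 1725, a ratio of 0.600, and Pdk4, which inhibits pyruvate dehydrogenase, had 1639.9 and 987, a ratio of 0.624. Cdkn1c, a cell cycle inhibitor, had 379 and 231, a ratio of 0.631. Pdk4 and Cdkn1c also fell short of the fold with spike-in scaling, at 0.663 and 0.670, and Cdkn1c with normexp background as well, at 0.679. In the earlier rows alone, 13 genes of the list were tested and 3 (23.1%) were lower, beside 7.29% of all genes there, with a median of -0.07. Whether the position on the array had a part in the list's values was not tested.

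Other well-known induced genes stayed within the fold. Dusp1, a phosphatase of MAP kinases, had a ratio of 0.803, Nfkbia, the inhibitor of NF-κB, 1.26, and Zfp36, which destabilises inflammatory mRNAs, 0.960. The metallothioneins Mt1 and Mt2 had 1.30 and 1.02, Errfi1 1.40 and Cebpd 0.865. Scnn1a, a subunit of the epithelial sodium channel that SGK1 keeps at the membrane, had 1.03. Probes of some genes disagreed on the fold. Per1, a clock gene, had a ratio of 1.22 at its bright probe, and a second probe was at least 4.71-fold higher. That second probe lay in row 322, with a signal of 5.43 in the control and a pixel SD over mean of 0.296 with CHIR99021. Mt1 had 1.84 at a dimmer probe. Glul, glutamine synthetase, had 0.688 at its brightest probe, 0.939 at the next and a limit of at least 1.55-fold lower at the dimmest. Bcl6, a transcriptional repressor, had 0.749.

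Of 12 inflammatory genes that the receptor represses, 9 were tested, none was lower and 2 were higher (22.2%, beside 8.05% of all genes), with 6 log2 ratios above 0, 3 below and a median of 0.14. The count of 2 was 0 without scaling, with quantile normalization, with cyclic loess, with the percentile over probes measured on both arrays and in the authors' table. Il6, the inflammatory cytokine, had signals of 5679 and 8393, a ratio of 1.53, and a second probe had 1.37. Ptgs2, which makes prostaglandins, had 1524 and 2273, a ratio of 1.55. Both were just past the fold and neither met the Z-score criterion. Mmp13 had 1.44, Cxcl1 1.14, Ccl2 1.03, Tnf 0.990 and Vcam1 0.731, and Il1b, Csf2 and Icam1 were not tested.

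The chaperones, cofactors and steroid enzymes of the receptor were a list of 17 with 15 tested, all measured on both arrays. They held 1 lower gene (6.67%, beside 5.76% of all genes measured on both) and none higher (beside 5.06%), with a median of 0.14. The lower gene was Ncoa2, a coactivator of the receptor, with signals of 601 and 376 and a ratio of 0.650, and it fell short of the fold in 3 of 9 alternative settings. At their brightest probes the chaperones and co-chaperones had ratios from 1.05 to 1.33, with Bag1 at 1.05, Hsp90aa1 at 1.20, Hsp90ab1 at 1.18, Ptges3 at 1.18, Fkbp4 at 1.11, Stip1 at 1.31 and Hspa4 at 1.33. Hsd11b1, which regenerates active glucocorticoid inside the cell, had signals of 213 and 154, a ratio of 0.750, and H6pd, which supplies its cofactor, 0.774. Both fell short of the fold. Dimmer probes passed it for Hspa4, at 1.57, for the coactivator Ncoa1, at 0.636, and for the corepressor Nrip1, at 1.62, whose brightest probes did not. The mineralocorticoid receptor Nr3c2 and Hsd11b2, which inactivates the hormone, were well above background on neither array.

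Sgk1 was lower without a like ratio in the kinases and substrates listed around it. Of 25 genes, 20 were tested, all measured on both arrays, and their median was -0.05. Among them 1 was lower (5%, beside 5.76% of all genes measured on both) and 1 was higher (5%, beside 5.06%). Sgk3, a relative of Sgk1, had a ratio of 0.848 at its brightest probe and up to 1.45 at another, and Sgk2 was not tested. Pdpk1, which phosphorylates the activation loop of SGK kinases, had 0.938. Rictor, of the mTORC2 complex that phosphorylates the hydrophobic motif, had 0.724 at its brightest probe, and its other probes gave 0.635, 0.534 and a limit of at least 1.52-fold lower, each dimmer and past the fold. The substrate Ndrg1 was the higher gene, with signals of 29661 and 43516 and a ratio of 1.52, which passed the fold in 4 of 9 alternative settings. Nedd4l, a ubiquitin ligase that SGK1 inhibits, had 1.26, and Foxo1 and Foxo3 had 0.919 and 1.13. Slc9a3r2, a scaffold that links SGK1 to the sodium/proton exchanger NHE3, was the lower one, with 201 and 115, a ratio of 0.591, and 0.708 with normexp background, short of the fold. Gsk3a and Gsk3b, which encode the targets of CHIR99021, had 1.16 and 0.903.

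Around Ddit4, 10 genes that act on mTORC1 were listed and 9 tested, all measured on both arrays, with a median of 0.15. A single gene was lower (11.1%, beside 5.76% of all genes measured on both) and none was higher (beside 5.06%). Sesn1, a sestrin that senses leucine, was the lower gene, with signals of 1461 and 856 and a ratio of 0.608. Sesn2 had 1.40 and Sesn3 0.806. The TSC complex genes Tsc1 and Tsc2 had 1.21 and 1.11, Rheb, the GTPase they act on, 1.11, and Rptor 1.21. Rptor had a further probe that was at least 2.45-fold higher, with signals of 6.00 and 55.9 and a pixel SD over mean of 0.326 with CHIR99021. Ddit4l, the closest relative of Ddit4, was well above background on neither array.

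Among 14 relatives of Tsc22d3 and Fkbp5, all measured on both arrays, 1 was lower (7.14%) and none was higher, with a median of -0.04. Of all genes measured on both, 5.76% were lower and 5.06% higher. The lower relative was Tsc22d1, with signals of 18208 and 11163 and a ratio of 0.636 at its brightest probe (0.675 with spike-in scaling, short of the fold). Its 3 dimmer probes gave 0.984, 1.13 and 0.782. Tsc22d2 had 0.715 and Tsc22d4 0.992. Fkbp1b, with signals of 196 and 125, lay just above the ratio of 0.66, and the other relatives ranged up to Fkbp15 at 1.31.

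**Figure D4:**
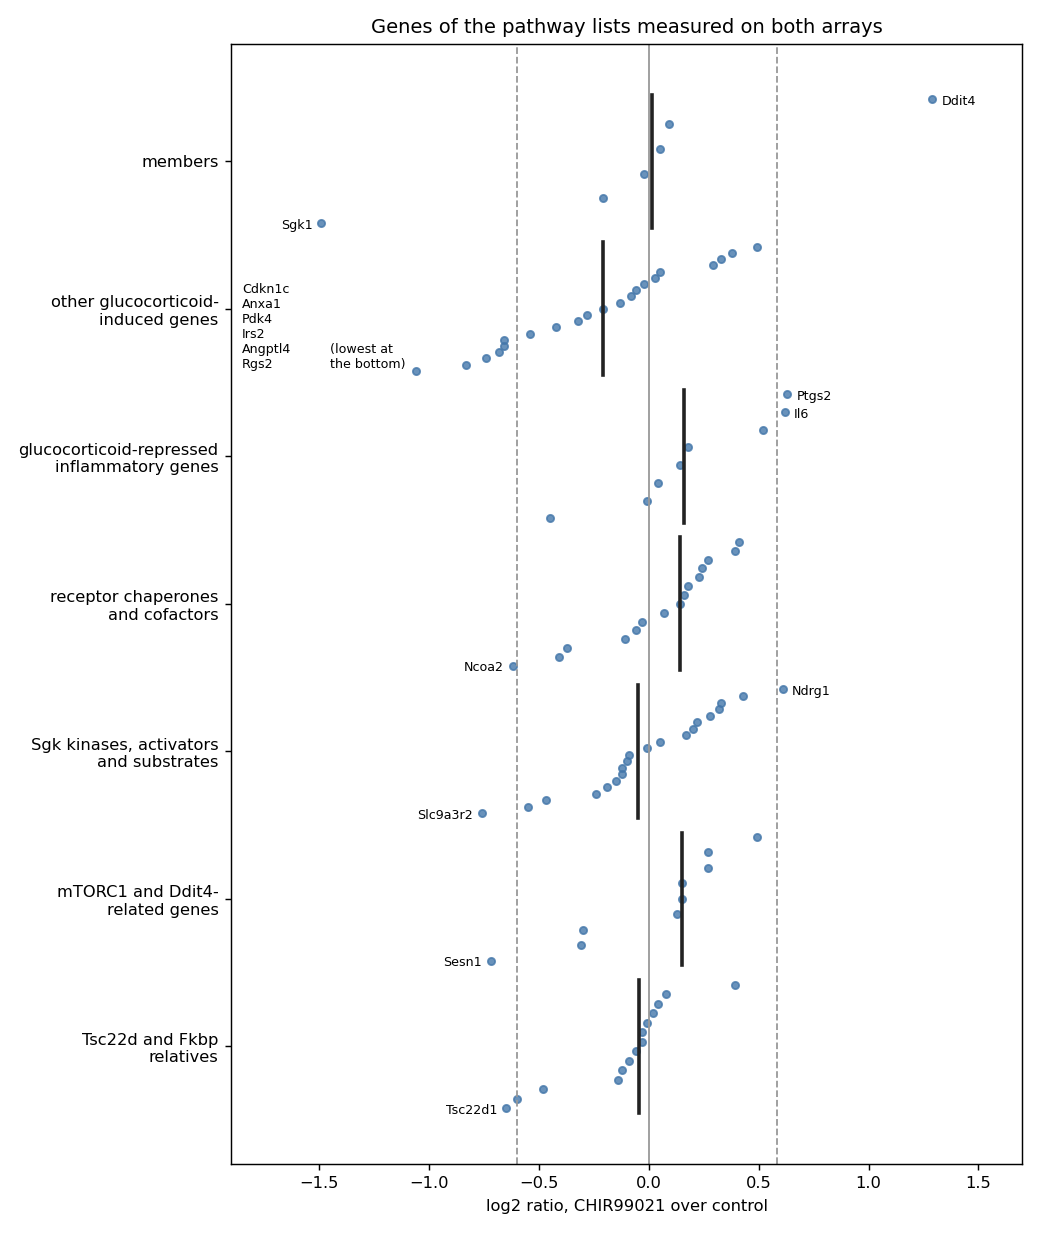
The log2 ratio of CHIR99021 over control for each gene of the members and of the 6 pathway lists that was well above background on both arrays (1 point per gene), with the median of each list as a bar and the fold lines dashed. Only genes past the fold are named. The induced list has 6 of its 21 points below the lower line, and the repressed list has Il6 and Ptgs2 just past the upper line. The lists were chosen with earlier results of these data known, so these counts are a description.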

How the data were processed

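RNA of mDE6 cells, 1 array of control cells and 1 of CHIR99021-treated cells, was labelled with Cy3 by the authors and hybridised to Agilent mouse arrays. The deposited intensity of each spot had its background subtracted by the scanner software, Feature Extraction 10.7.1.1 per the file headers and 9.5.1.1 per the submitters' processing notes, without normalization between arrays. A second table from the authors holds intensity after normalization, by a method not given in the sources used here. The methods name a human array, whereas the header names a mouse design and build mm9.

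Control spots and 101 outlier spots were left out, spots of a probe were averaged, and signals were divided by the 75th percentile of their array (Python 3.11.15, numpy 2.4.6, pandas 2.3.3, matplotlib 3.10.9). Tested probes were well above background on 1 array or both. Lower means a ratio of at most 0.66 and higher at least 1.5; the Z-score used 500 probes nearest in mean signal, with a threshold of 2.0. A gene was taken at its highest-signal probe, and a probe that was dim on 1 array has only a limit. Error bars are those of the Feature Extraction error model, not of replicates.

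Members, lists and rules were chosen with earlier results of these data known. Named genes were the members, tested genes of the lists, and, per member, the 3 genes nearest in log2 ratio whose control signal lay within 0.32 on the log2 scale. The lists were other glucocorticoid-induced genes, repressed inflammatory genes, receptor partners, SGK partners, mTORC1 genes, Tsc22d and Fkbp relatives, Wnt feedback genes and markers of epithelial and other cells. The result of the dental markers is not reported here. Promoters came from RefSeq in GRCm38.p6. The scripts were tested on simulated data. Alternatives were other scalings, background correction by normexp in limma 3.58.1 under R 4.3.3 (offset 50), the authors' table, other filters, probe rules and Z-scores.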

Additional observations from a re-analysis of the deposited data

How the results depend on the processing

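Sgk1 remained lower and Ddit4 higher under all 9 alternative scalings and background settings. Of the pathway and Wnt feedback genes past the fold and measured on both arrays, none changed direction under these 9, though several fell short of the fold, and the cell markers were not run gene by gene. The log2 ratio of Sgk1 was -1.54 without scaling, -1.46 with median scaling, -1.56 with quantile normalization, -1.55 with the percentile taken over probes measured on both arrays and with cyclic loess, -1.41 with spike-in scaling, -1.44 with normexp background and -1.57 in the authors' table. Ddit4 was at 1.24 without scaling and with the percentile over both arrays, 1.32 with median scaling, 1.21 with quantile normalization, 1.38 with spike-in scaling, 1.23 with cyclic loess and 1.19 in the authors' table. The median over the members changed sign. It was -0.04 without scaling, with the percentile over both arrays and with cyclic loess, 0.04 with median scaling, -0.02 with quantile normalization, in the authors' table and in the earlier rows only, 0.10 with spike-in scaling, -0.10 with the mean of the probes and 0.05 with no filter. The median of the 22 tested other glucocorticoid-induced genes, -0.24, stayed below 0, at -0.30 without scaling, with the percentile over both arrays and with cyclic loess, -0.21 with median scaling, -0.33 with quantile normalization, -0.16 with spike-in scaling, -0.34 in the authors' table, -0.21 for probes on both arrays, -0.17 with no filter and -0.07 in the earlier rows. Their count of lower genes was 4 with spike-in scaling, and 2 were higher by the mean of the probes. The shares of all genes under these settings are not given here, so nothing is read from these counts. In the earlier rows 3 of 13 (23.1%) were lower, beside 7.29% of all genes there. The medians of the SGK partners and of the Tsc22d and Fkbp relatives were above 0 with spike-in scaling, at 0.03 and 0.04. Over all probes, 1183 were lower and 1214 higher with normexp, 1403 and 1375 for probes on both arrays, and 5078 and 5044 with no filter, which tests more probes. The causes of the other shifts were not tested. No scaling moved the median of all probes by more than 0.09. No paired analysis was possible because a single array stands for each condition. Signals near background limit the dimmer probes, and the number of arrays limits the precision.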
